A study of Homo sapiens with 36 samples.

Results

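The genes described here encode the parts of the hemidesmosome, the junction that fastens the basal face of an epithelial cell to its basement membrane, and 2 of the chains of laminin-332, the matrix protein it grips. The members were chosen by name with earlier results of these data known, so their counts set against all genes are a description. They were LAMA3 and LAMB3 (laminin chains), ITGA6 and ITGB4 (the integrin α6β4 pair) and ITGA3 (the α chain of a second laminin-332 receptor). Also included were COL17A1 (collagen XVII, a transmembrane protein), and DST and PLEC (the plakins dystonin and plectin, which tie the junction to keratin filaments). All 8 were found by Ensembl ID among the 57500 genes counted, and all 8 passed the filter on low counts in both cell lines. In an epithelium, laminin-332 is secreted into the basement membrane, integrin α6β4 binds it from the cell side, and collagen XVII and the plakins complete the plaque. When cells migrate or repair a wound, hemidesmosomes are taken apart and laminin-332 is laid down as a track that integrin α3 also binds.

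Polyadenylated RNA was sequenced from 36 libraries of 2 human cell lines derived from esophageal adenocarcinoma, FLO1 and OE33, both established lines labelled epithelial. The culture medium was DMEM for FLO1 but RPMI1640 for OE33, so line and medium cannot be told apart. Each line carried, by stable transduction, a non-targeting shRNA (shControl), shAPE1#1 or shAPE1#3, the latter pair directed at APE1. APE1, encoded by APEX1, cuts DNA at abasic sites during base excision repair and also keeps several transcription factors, AP-1 among them, in a reduced state. Each of the 3 populations of a line was left unexposed or was exposed for 20 minutes to acidic bile salts (ABS, 200 µM at pH 4), a model of gastroesophageal reflux, and then kept for 6 h in complete medium, which gave 12 groups of 3 libraries. The labels do not say whether a transduced population was a clone, nor that the 3 libraries of a group came from separate cultures, so the p-values measure the spread between libraries, which may be technical.

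Depth ran from 20.7 to 40.7 M counts per library, and no pair of libraries of a group differed as little as sampling alone would give. APEX1 was at 184.2 to 192.1 counts per 1 M counts of the TMM-scaled library (CPM) in unexposed FLO1 shControl and at 24.2 to 37.0 CPM in unexposed FLO1 with either shRNA against APE1. In unexposed OE33 it was at 200.4 to 210.7 CPM with shControl and at 22.5 to 27.7 CPM with either shRNA, which matches the labels. The epithelial label fitted OE33, with EPCAM at 489.4 to 670.1 CPM and CDH1 at 347.1 to 485.4 CPM. In FLO1, EPCAM was near absent (0.308 to 1.65 CPM), CDH1 was at 6.01 to 18.8 CPM and the mesenchymal marker VIM reached 2506.0 to 3457.2 CPM, although the simple keratin KRT8 stayed at 1308.3 CPM or more. TP63, the master regulator of basal squamous cells, was at or below 0.562 CPM in every library of both lines. The leukocyte marker PTPRC was at or below 0.0513 CPM and the endothelial marker PECAM1 at or below 0.103 CPM in every library. The sum over 8 fibroblast markers was 17.8 to 37 CPM in FLO1. In OE33 that sum was 4.41 to 22.1 CPM in shControl after ABS and 5.46 CPM or less in every other group. One library, replicate 2 of FLO1 shControl after ABS, stood apart in several members, so the FLO1 calls after ABS that rest on it, and the values whose direction or call turns, are also given without it. Because member values singled it out, a call gained without it is a description and no support for a change. The column of another library, FLO1 shAPE1#3 after ABS replicate 3, matched its library name but carried an additional suffix.

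On GRCh38 the protein-coding members were placed by the GENCODE annotation as follows. The laminin chains are LAMA3 (ENSG00000053747) at chr18:23689443-23956222 on the plus strand and LAMB3 (ENSG00000196878) at chr1:209614870-209652466 on the minus strand. The integrin genes are ITGA6 (ENSG00000091409) at chr2:172427354-172506282 on the plus strand, ITGB4 (ENSG00000132470) at chr17:75721328-75757818 on the plus strand and ITGA3 (ENSG00000005884) at chr17:50055968-50090481 on the plus strand. The others are COL17A1 (ENSG00000065618) at chr10:104031286-104085957 on the minus strand and DST (ENSG00000151914) at chr6:56457987-56954628 on the minus strand, with PLEC under ENSG00000178209.

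Promoter sequences are shown for the laminin chains LAMA3 and LAMB3, which were both called after ABS in OE33, and for COL17A1, the member with the largest fall. DST was also called after ABS in OE33, and its windows are described below but not shown. RefSeq (GRCh38.p14) gave windows of 300 bases, from 250 before to 50 after a start, for 5 of the 8 members: LAMA3, LAMB3, ITGA6, COL17A1 and DST. The LAMA3 window starts at an internal start of the gene (chr18:23872770-23873069, plus strand), the LAMB3 window shown is the most downstream of its 3 (chr1:209651325-209651624, minus strand), and that of COL17A1 is chr10:104085831-104086130, minus strand. Capitals mark matches to TGANTCA, the motif of AP-1 (FOS and JUN dimers).
LAMA3: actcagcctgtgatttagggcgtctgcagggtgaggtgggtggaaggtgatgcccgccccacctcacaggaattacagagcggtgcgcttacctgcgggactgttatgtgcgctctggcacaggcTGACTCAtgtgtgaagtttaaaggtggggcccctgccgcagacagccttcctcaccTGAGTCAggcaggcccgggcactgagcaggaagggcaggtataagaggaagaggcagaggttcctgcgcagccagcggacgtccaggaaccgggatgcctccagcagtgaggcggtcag
LAMB3: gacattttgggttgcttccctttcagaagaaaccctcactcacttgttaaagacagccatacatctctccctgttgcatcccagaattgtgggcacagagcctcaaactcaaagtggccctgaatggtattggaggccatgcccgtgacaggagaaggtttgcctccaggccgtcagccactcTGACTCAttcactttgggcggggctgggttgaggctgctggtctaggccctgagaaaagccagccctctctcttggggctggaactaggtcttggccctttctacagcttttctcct
COL17A1: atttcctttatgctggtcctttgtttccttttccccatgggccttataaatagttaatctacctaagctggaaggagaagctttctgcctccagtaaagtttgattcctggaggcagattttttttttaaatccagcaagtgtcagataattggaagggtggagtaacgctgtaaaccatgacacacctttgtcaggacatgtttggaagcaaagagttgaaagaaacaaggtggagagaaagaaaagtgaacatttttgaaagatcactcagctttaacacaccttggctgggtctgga
The LAMA3 window held 2 AP-1 matches, beginning at positions -125 and -69 from the start, and the LAMB3 window held 1, at -67. Of the LAMB3 windows the one shown is the one with an AP-1 match, so the windows shown do not tell how common such matches are among the members. The COL17A1 window held none, nor any match to TGACGTCA (CRE), GGGCGG (SP1) or GGAATG (TEAD), all searched on both strands. AP-1 matches were found in 7.71% of all 35116 RefSeq windows of this length, against 1.85% for CRE, 45% for SP1 and 14% for TEAD. Of the other windows, 1 of DST held an AP-1 match at 26 and a TEAD match at -249. The remaining DST windows, both other LAMB3 windows and both of ITGA6 held neither. SP1 matches lay in all 3 LAMB3 windows, in the LAMA3 window at -197, in both ITGA6 windows and in that DST window. None of the SP1 matches overlapped an AP-1 match. A match describes letters in a window and not a bound site.

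The cells of the 2 lines carried different sets of hemidesmosome transcripts before any treatment. In unexposed shControl cells 7 of the 8 members were higher in OE33 than in FLO1 and none was lower, where 77.6% of the 18199 genes tested differed in either direction, so the count says little about these genes. Large sizes were not particular to them either. Other epithelial genes differed by more than any member on the log2 scale (KRT19 by 10.27, EPCAM by 9.35 and CLDN7 by 8.97), and VIM by -12.25. ITGB4, the β chain that pairs with integrin α6 to bind laminin, read 318.0, 348.7 and 348.9 CPM in OE33 against 2.21, 2.55 and 6.64 CPM in FLO1. The groups were far apart, a difference of 6.49 ± 0.20 (log2 fold change ± SE, 90.1-fold, adjusted p = 2.11e-26, from edgeR by its quasi-likelihood F test, with the Benjamini-Hochberg method over all genes, as for each adjusted p below). Without the FLO1 library at 6.64 CPM (shControl replicate 1) the ITGB4 difference was 7.15. LAMA3, the α chain that carries the integrin-binding end of laminin-332, was 56.2-fold higher in OE33 (185.9, 189.0 and 190.0 against 2.57, 3.1 and 4.45 CPM). COL17A1 was 29.3-fold higher (73.2, 82.0 and 82.4 against 2.58, 2.66 and 2.87 CPM). LAMB3 was 7.58-fold, ITGA6 3.6-fold, ITGA3 1.86-fold and DST 1.74-fold higher in OE33. PLEC, which also serves many other cytoskeletal links, was at 1390.9 to 1465.4 CPM in OE33 and 1320.1 to 1577.2 CPM in FLO1, groups that overlapped (log2 difference -0.04 ± 0.14, edgeR adjusted p = 0.807).

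**Figure D1:**
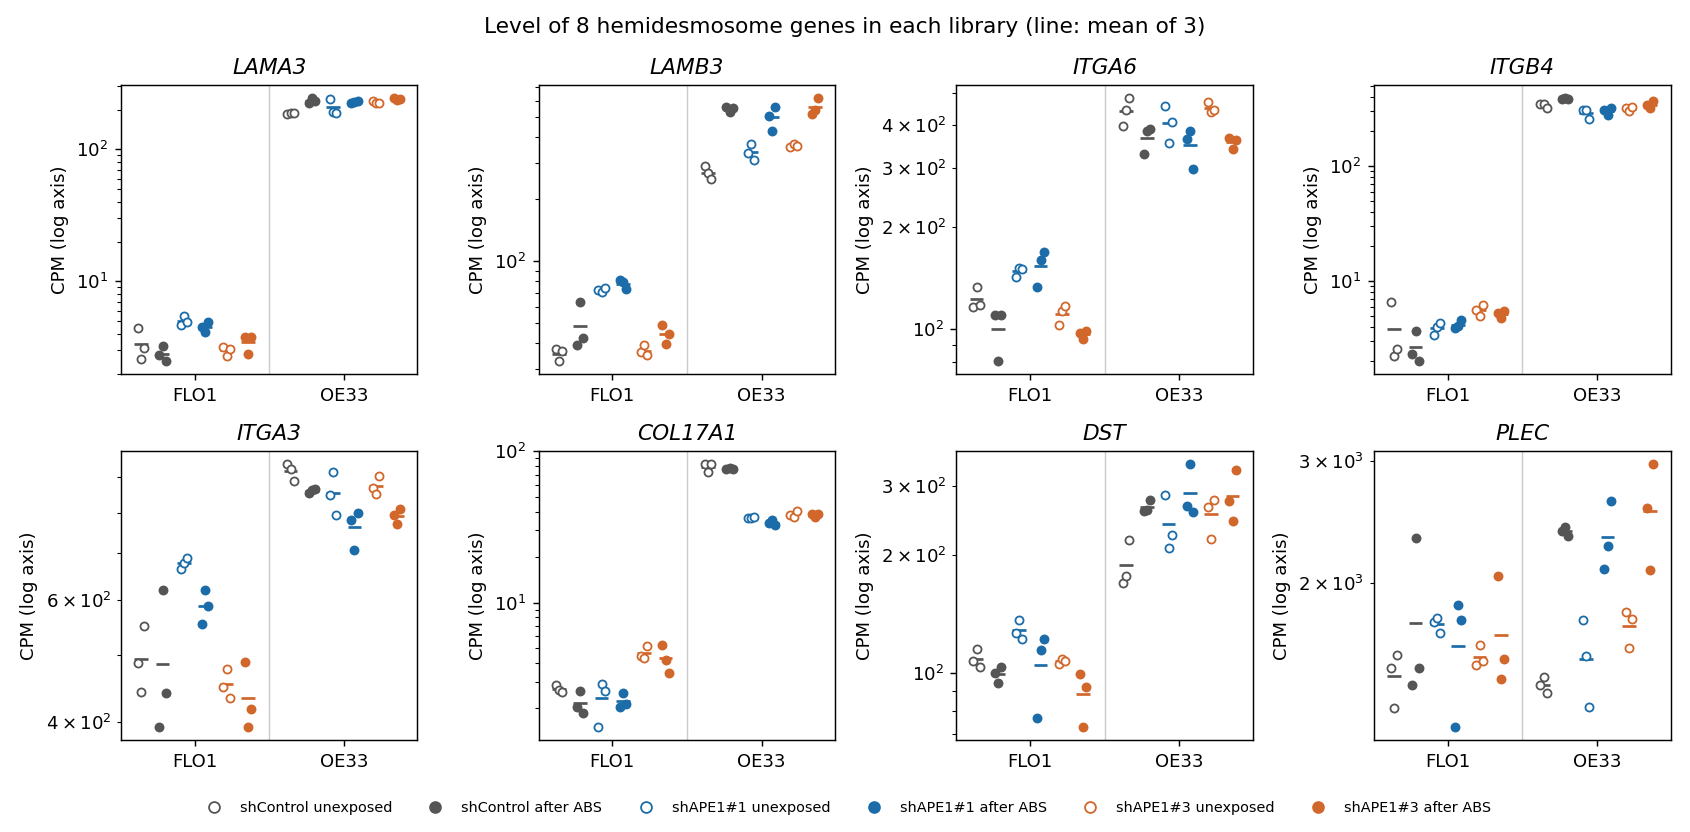
Level of each of the 8 genes in every library, as CPM on log axes with a separate scale for each gene; open points are unexposed, filled points are after ABS, colors are the shRNAs and short lines are means of 3. LAMA3, ITGB4 and COL17A1 lie at 6.64 CPM or less in all FLO1 libraries, and the PLEC values of the 2 lines overlap.

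Per kilobase of annotated exon, the order of levels in unexposed FLO1 shControl was PLEC (86.4 CPM per kb), ITGA3 (50.3), ITGA6 (18.7), LAMB3 (7.58), DST (2.57), ITGB4 (0.562), COL17A1 (0.383) and LAMA3 (0.23). The libraries of neighbours in this order overlapped between ITGB4 and COL17A1. In OE33 the order was ITGA3 (93.6 CPM per kb), PLEC (84.1), ITGA6 (67.5), LAMB3 (57.4), ITGB4 (50.1), LAMA3 (12.8), COL17A1 (11.2) and DST (4.46), with an overlap between ITGA6 and LAMB3. FLO1 thus held integrin α6 transcript with little of its β4 partner, and LAMB3 with little LAMA3. The low FLO1 levels rested on 63 to 179 counts per library for LAMA3, 51 to 237 for ITGB4 and 41 to 186 for COL17A1, which limits how small a change could be seen there.

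Exposure of OE33 to ABS raised both laminin chains and both plakins 6 h later. In shControl cells 4 of the 8 members were higher after ABS and none was lower, where 8.4% of 15540 genes were called in either direction and 5.89% were higher. LAMB3, the β chain of laminin-332, read 251.5, 267.3 and 289.0 CPM unexposed and 532.0, 556.3 and 560.1 CPM after ABS. All exposed libraries lay above all unexposed ones, a log2 fold change of 1.03 ± 0.09 (2.04-fold, edgeR adjusted p = 1.99e-08). LAMA3 rose less, from 185.9 to 190.0 CPM to 223.9 to 244.6 CPM, again with no overlap (0.31 ± 0.07, edgeR adjusted p = 0.00615). PLEC rose from 1390.9 to 1465.4 CPM to 2338.3 to 2405.7 CPM (0.73 ± 0.11, edgeR adjusted p = 6.86e-05). DST rose from 170.0 to 219.2 CPM to 259.8 to 276.7 CPM (0.50 ± 0.13, edgeR adjusted p = 0.018), and this call was lost without shControl replicate 1 or 2 or without ABS replicate 3 (edgeR adjusted p up to 0.0833). In a bulk library, more cells with a transcript and more transcript per cell cannot be told apart.

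None of the 3 integrin members passed the test after ABS in OE33, nor did COL17A1. ITGA6 had lower values after ABS in OE33 shControl (329.4, 384.9 and 389.0 against 398.1, 443.7 and 481.6 CPM) without passing the test (-0.26 ± 0.09, edgeR adjusted p = 0.0878). Its values were on the same side with shAPE1#1 (-0.22 ± 0.09, edgeR adjusted p = 0.186) and shAPE1#3 (-0.33 ± 0.09, edgeR adjusted p = 0.0604). ITGB4 read 380.7 to 389.4 against 318.0 to 348.9 CPM in shControl, groups that did not overlap, a difference of 0.19 ± 0.08 (edgeR adjusted p = 0.136). In the same comparison ITGA3 differed by -0.09 ± 0.06 (0.424 for its edgeR adjusted p) and COL17A1 by -0.04 ± 0.07 (0.782 for its edgeR adjusted p). For COL17A1 the 95% interval of the log2 difference ran from -0.17 to 0.09.

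OE33 cells with APE1 knocked down kept a rise of LAMB3 and PLEC after ABS. With both shRNAs 2 of the 8 members were called and both were higher, where 1.63% of genes were called with both. LAMB3 went from 311.2, 336.8 and 371.4 to 430.6, 506.0 and 560.2 CPM with shAPE1#1 (0.56 ± 0.09, edgeR adjusted p = 0.000274). With shAPE1#3 it went from 359.6, 360.4 and 368.7 to 516.1, 542.7 and 618.9 CPM (0.63 ± 0.09, edgeR adjusted p = 9.3e-05). PLEC rose by 0.59 ± 0.11 with shAPE1#1 and by 0.56 ± 0.11 with shAPE1#3 (edgeR adjusted p = 0.00175 and 0.00355), the latter at adjusted p = 0.0507 without shAPE1#3 ABS replicate 3. LAMA3 differed by 0.14 ± 0.07 and 0.08 ± 0.07, and DST by 0.27 ± 0.13 and 0.16 ± 0.13, none of which passed.

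**Figure D2:**
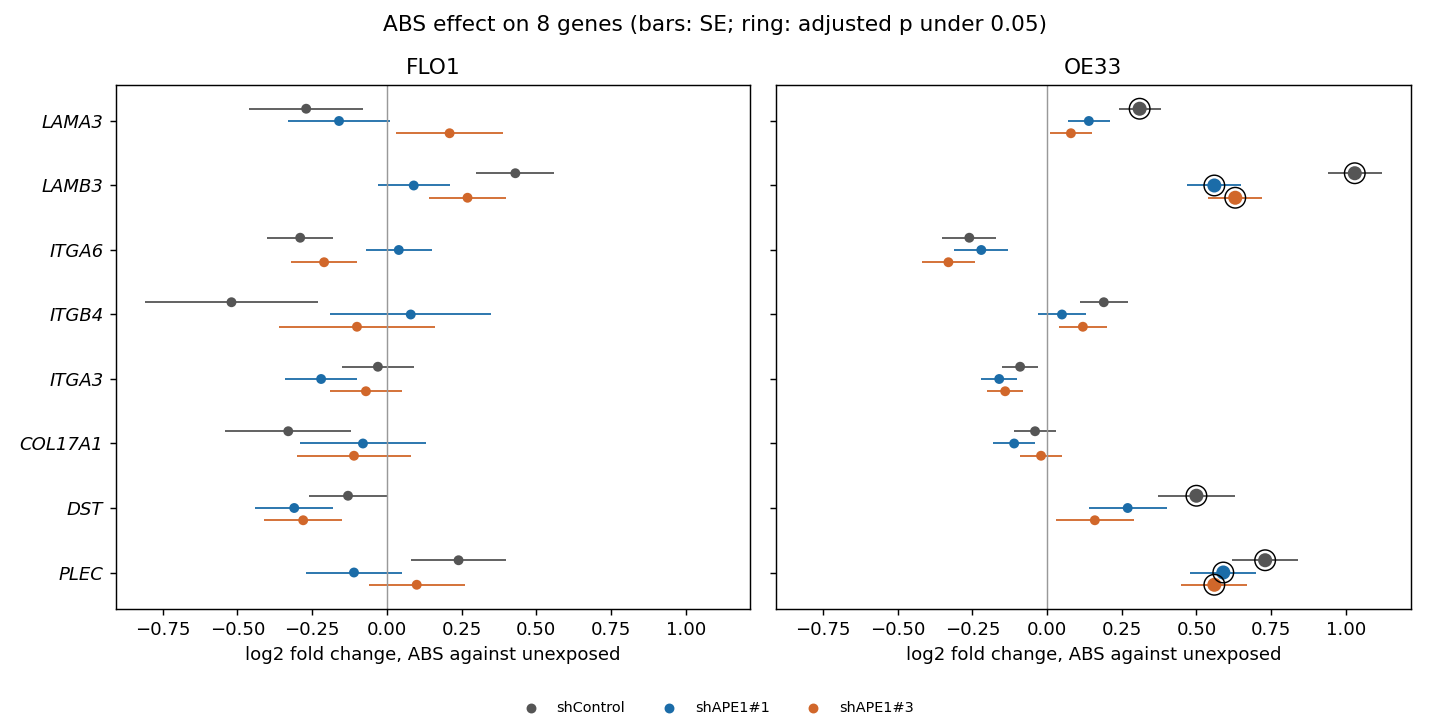
Log2 fold change after ABS against unexposed cells (bars are SE) for each gene and shRNA in FLO1 and OE33; a black ring marks an edgeR adjusted p under 0.05. Rings are found in OE33 alone, on LAMB3 and PLEC with all 3 shRNAs and on LAMA3 and DST with shControl.

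The response to ABS with an shRNA against APE1 was then set against that with shControl in the same fit. No member passed this test with both shRNAs in either line, where 0% of genes did (edgeR). At an unadjusted p under 0.05 with both shRNAs the counts were 1 member in OE33 and 0 in FLO1, and DESeq2 called 0 in each. That member was LAMB3, whose ABS response was different by -0.47 ± 0.12 on the log2 scale with shAPE1#1 and by -0.40 ± 0.12 with shAPE1#3 (edgeR adjusted p = 0.684 and 0.798). The unexposed level of LAMB3 was higher in the knockdown cells than in shControl, while after ABS the 3 populations lay in 1 range, 430.6 to 618.9 CPM.

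In FLO1 no member passed the test for ABS. With shControl the count was 0 of 8, where 3% of 16868 genes were called; 2 members had an unadjusted p under 0.05 and DESeq2 called 1 of them, LAMB3. LAMB3 read 32.8, 36.5 and 37.5 CPM unexposed and 39.2, 42.5 and 63.6 CPM after ABS, groups that did not overlap (0.43 ± 0.13, edgeR adjusted p = 0.0682). Without the library at 63.6 CPM, the replicate 2 noted above, the difference was 0.21 (edgeR adjusted p = 0.183). The same library held the highest ITGA3 (619.2 CPM) and PLEC (2319.1 CPM) and the lowest ITGA6 (80.6 CPM) of its group. ITGA6 read 110.2, 80.6 and 110.3 CPM after ABS against 116.5 to 133.1 CPM (-0.29 ± 0.11, edgeR adjusted p = 0.21), and without that library the difference was -0.15 (edgeR adjusted p = 0.387). Both shAPE1 populations gave a count of 0 of 8, where 1.14% of genes were called with both; 1 member had an unadjusted p under 0.05 with both and DESeq2 called 0. That 1 member was DST (-0.31 ± 0.13 and -0.28 ± 0.13 by edgeR, adjusted p = 0.2 and 0.417).

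The lines were compared for their ABS response in 1 fit over all 36 libraries. LAMB3 was the 1 member called, where 1.73% of genes were: its response was larger in OE33 by 0.59 ± 0.16 on the log2 scale (edgeR adjusted p = 0.0491). This call stood at the threshold, and it was lost in 10 of the 12 fits that left out 1 library, with edgeR adjusted p from 4.26e-05 without FLO1 shControl ABS replicate 2 (difference 0.84) to 0.167 without replicate 3 of that group. LAMA3 and DST, higher after ABS in OE33 alone by the tests within lines, differed between the lines by 0.57 ± 0.18 and 0.62 ± 0.19 (edgeR adjusted p = 0.119 and 0.0992), so a difference between lines was not shown for them. Without FLO1 shControl ABS replicate 2, LAMA3 (0.67) and PLEC (0.75) also passed (edgeR adjusted p = 0.0339 and 0.015). With it PLEC stood at 0.48 ± 0.20 (edgeR adjusted p = 0.303). Calls over all genes rose in the same refit from 1.73% to 4.76%, so the added member calls are not particular to these genes.

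Knockdown of APE1 lowered COL17A1 in OE33, 2.17-fold with shAPE1#1 and 2.05-fold with shAPE1#3 in unexposed cells. Unexposed libraries read 73.2, 82.0 and 82.4 CPM with shControl, 36.1, 36.4 and 37.0 CPM with shAPE1#1 and 36.9, 38.2 and 40.3 CPM with shAPE1#3. Each knockdown library lay below each control library, a log2 fold change of -1.12 ± 0.07 and -1.04 ± 0.07 (edgeR adjusted p = 1.25e-11 and 5.43e-11). After ABS, COL17A1 was at 76.3 to 77.6 CPM with shControl, 32.7 to 35.2 CPM with shAPE1#1 and 36.6 to 38.7 CPM with shAPE1#3 (-1.19 ± 0.07 and -1.02 ± 0.07, edgeR adjusted p = 4.31e-12 and 6.9e-11). COL17A1 was the only member called lower with both shRNAs in these comparisons. ITGB4 and ITGA3 also lay wholly below shControl after ABS with each shRNA, and of these values only that of ITGB4 with shAPE1#1 passed the test.

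LAMB3 was higher with both shRNAs in unexposed OE33, by 0.34 ± 0.09 and 0.43 ± 0.09 (edgeR adjusted p = 0.00738 and 0.000617), so that 2 of 8 members were called there, 1 in each direction, where 12.9% of genes were. The shAPE1#1 call was at adjusted p = 0.0516 without shControl replicate 3 (edgeR). LAMA3 was higher with shAPE1#3 (223.8 to 232.4 against 185.9 to 190.0 CPM; 0.27 ± 0.07, edgeR adjusted p = 0.00762), and with shAPE1#1 the difference of 0.15 ± 0.07 did not pass. DST was higher with shAPE1#3 (0.43 ± 0.13, edgeR adjusted p = 0.0194), a call lost in 4 of the 6 fits that left out 1 library. With shAPE1#1 it differed by a near value, 0.35 ± 0.13, that did not pass (edgeR adjusted p = 0.0723). In unexposed OE33 the count with both shRNAs was 3 at an unadjusted p under 0.05 (edgeR), and DESeq2 called 3. After ABS, COL17A1 was the 1 member of 8 called with both shRNAs, where 12.4% of genes were. LAMB3 then differed from shControl by -0.14 ± 0.09 and 0.03 ± 0.09. ITGB4 was lower after ABS with shAPE1#1 (275.4, 304.1 and 321.4 against 380.7, 384.6 and 389.4 CPM; -0.36 ± 0.08, edgeR adjusted p = 0.00172) and differed by -0.16 ± 0.08 with shAPE1#3 (edgeR adjusted p = 0.148).

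Between the shRNAs in OE33, 0 of 8 members were called for shAPE1#3 against shAPE1#1 in unexposed cells (edgeR), 0 at an unadjusted p under 0.05 and 0 by DESeq2. Of all 15540 genes edgeR called 0%, with 1248 at an unadjusted p under 0.05 and 25 called by DESeq2. For COL17A1 the 95% interval of the log2 difference between them ran from -0.06 to 0.22. The sum over 8 mesenchymal markers was higher with knockdown in OE33, and it was mostly FN1 (229.1 to 753.4 CPM over all OE33 libraries). It was 238.4 to 262.2 CPM in unexposed shControl, 434.2 to 605.6 with shAPE1#1 and 591.5 to 673.9 with shAPE1#3. Of the 4 tested, 3 were higher: VIM by 2.91, ZEB1 by 1.25 and FN1 by 1.20 on the log2 scale. VIM was at 7.5 CPM or less, ZEB1 at 2.17 CPM or less and TWIST1 under 0.1 CPM in every OE33 library. After ABS, FN1 alone of these markers was called with both shRNAs (0.74). The epithelial sum over 12 genes was 23477.2 to 26388.2 CPM with shControl and 19620.5 to 22143.1 with either shRNA. KRT19 made up much of this sum (8327.2 to 13859.4 CPM over all OE33 libraries). KRT19 (-0.50), ELF3 (-0.36) and CLDN7 (-0.26) were lower with both shRNAs, while CDH1 was called higher with shAPE1#3 (0.28). The part of the mesenchymal and epithelial markers in the changes of COL17A1 and LAMB3 was not tested.

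**Figure D3:**
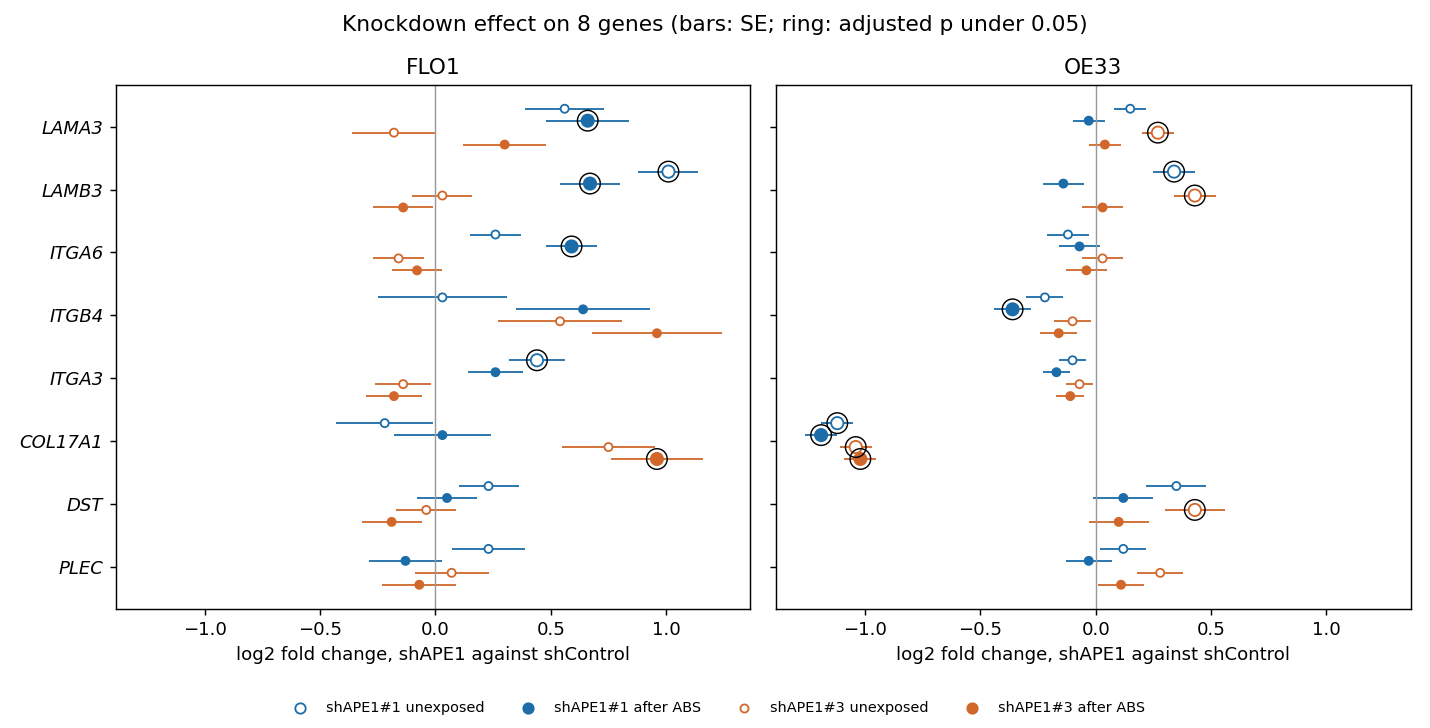
Log2 fold change with each shRNA against shControl (bars are SE), unexposed (open) and after ABS (filled), in FLO1 and OE33; a black ring marks an edgeR adjusted p under 0.05. COL17A1 lies between -1.19 and -1.02 in OE33 and between -0.22 and 0.96 in FLO1.

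In FLO1 the calls with the 2 shRNAs fell on different members. No member was called with both shRNAs, unexposed (0.0711% of genes were) or after ABS (0.142%); the counts at an unadjusted p under 0.05 with both were 0 and 1, and DESeq2 called 0 in each. That 1 was ITGB4 after ABS, which lay wholly above shControl (2.02 to 3.66 CPM) with shAPE1#1 (3.88 to 4.55 CPM; 0.64 ± 0.29, edgeR adjusted p = 0.134) and with shAPE1#3 (4.74 to 5.53 CPM; 0.96 ± 0.28, edgeR adjusted p = 0.162). With shAPE1#1 alone, 2 of 8 members were called in unexposed cells, both higher, where 6.74% of genes were called. LAMB3 read 70.9, 72.2 and 74.4 CPM against 32.8, 36.5 and 37.5 CPM with shControl, wholly above it (1.01 ± 0.13, 2.01-fold, edgeR adjusted p = 1.98e-05). ITGA3 read 664.7, 677.2 and 688.4 against 441.9, 486.8 and 549.2 CPM (0.44 ± 0.12, edgeR adjusted p = 0.0299), a call lost in 5 of the 6 fits that left out 1 library. LAMA3 was at 4.65 to 5.46 against 2.57 to 4.45 CPM and narrowly failed (0.56 ± 0.17, edgeR adjusted p = 0.0561). The epithelial sum over 12 genes was also higher in unexposed FLO1 with shAPE1#1, at 3570.6 to 3812.6 CPM. It was 2303.8 to 2676.9 CPM with shControl and 2434.6 to 2511.3 CPM with shAPE1#3. The largest called changes of that list with shAPE1#1 were CDH1 (1.21), CLDN4 (0.68) and KRT8 (0.66). Their part in the member changes was not tested.

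After ABS, FLO1 cells with shAPE1#1 had 3 of 8 members called against shControl, all higher, where 16.6% of genes were called. LAMB3 was higher by 0.67 ± 0.13 (73.5, 78.9 and 80.7 against 39.2, 42.5 and 63.6 CPM, edgeR adjusted p = 0.00104), and by 0.90 without the control library at 63.6 CPM. ITGA6 was higher by 0.59 ± 0.11 (133.0, 160.2 and 168.6 against 80.6, 110.2 and 110.3 CPM, edgeR adjusted p = 0.00123), and by 0.45 without that library. LAMA3 was higher by 0.66 ± 0.18 (4.1, 4.51 and 4.94 against 2.49, 2.74 and 3.21 CPM, edgeR adjusted p = 0.0145), and by 0.75 without it, but the call was lost without shControl ABS replicate 3 or shAPE1#1 ABS replicate 3. ITGA3, at 0.26 ± 0.12 (edgeR adjusted p = 0.156), reached 0.46 (edgeR adjusted p = 0.000809) without that library. Calls over all genes with both shRNAs also rose in that refit, from 0.142% to 0.817%.

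With shAPE1#3, no member passed in unexposed FLO1 cells (0 of 8, where 0.788% of genes were called; 1 at an unadjusted p under 0.05 by edgeR and 1 by DESeq2). COL17A1 had 4.3, 4.43 and 5.14 CPM against 2.58, 2.66 and 2.87 CPM (0.75 ± 0.20, edgeR adjusted p = 0.0823), groups that did not overlap. After ABS, COL17A1 was the 1 member called, where 0.783% of genes were: 3.42, 4.21 and 5.23 against 1.86, 2.06 and 2.62 CPM (0.96 ± 0.20, edgeR adjusted p = 0.0242; 1.08 without replicate 2 of the control). That call was lost without either other control library, or without shAPE1#3 ABS replicate 1 or 2. The ITGB4 difference after ABS passed without replicate 2 of the control (1.21, edgeR adjusted p = 0.0234), the refit in which calls over all genes with both shRNAs also rose. Unexposed, ITGB4 differed by 0.54 ± 0.27 (edgeR adjusted p = 0.563), and by 1.21 without shControl replicate 1, the library at 6.64 CPM. That library was picked by its own ITGB4 value, so the refit shows how far 1 library moved the estimate and is no test. LAMB3 differed by 0.03 ± 0.13 unexposed and by -0.14 ± 0.13 after ABS, and the latter turned to 0.09 (edgeR adjusted p = 0.596) without replicate 2 of the control. Without the suffixed library, shAPE1#3 ABS replicate 3, COL17A1 after ABS was higher by 1.10 (edgeR adjusted p = 0.0207).

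Set against each other in unexposed FLO1, the shRNAs differed in 5 of 8 members, where 12.2% of genes differed. With shAPE1#3 as against shAPE1#1, LAMB3 was lower by 0.98 on the log2 scale (SE 0.13, edgeR adjusted p = 1.29e-05), LAMA3 by 0.75, ITGA3 by 0.58 and ITGA6 by 0.42, while COL17A1 was higher by 0.96 ± 0.20 (edgeR adjusted p = 0.00215). The ITGA6 call was lost without shAPE1#1 replicate 2 or 3 or shAPE1#3 replicate 1. Of 75 tested genes on 7 lists of other adhesion genes, 25 also differed between the shRNAs, so the difference was not particular to the members. APEX1 was at 24.2 to 24.4 CPM with shAPE1#1 and 34.3 to 37.0 CPM with shAPE1#3 in these libraries, and its part in the difference was not tested.

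Between lines, the knockdown effect averaged over both shRNAs in unexposed cells differed in 1 of 8 members, where 6.37% of genes differed. COL17A1 was lower in OE33 relative to FLO1 by 1.36 ± 0.16 on the log2 scale as a difference of effects (edgeR adjusted p = 3.08e-07). The effects behind it were -1.12 and -1.04 in OE33 with shAPE1#1 and shAPE1#3, and -0.22 and 0.75 in FLO1, where the 2 shRNAs differed. For LAMB3 the difference of effects was -0.15 ± 0.14 (edgeR adjusted p = 0.63), with the FLO1 average made of 1 shRNA at 1.01 and 1 at 0.03.

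**Figure D4:**
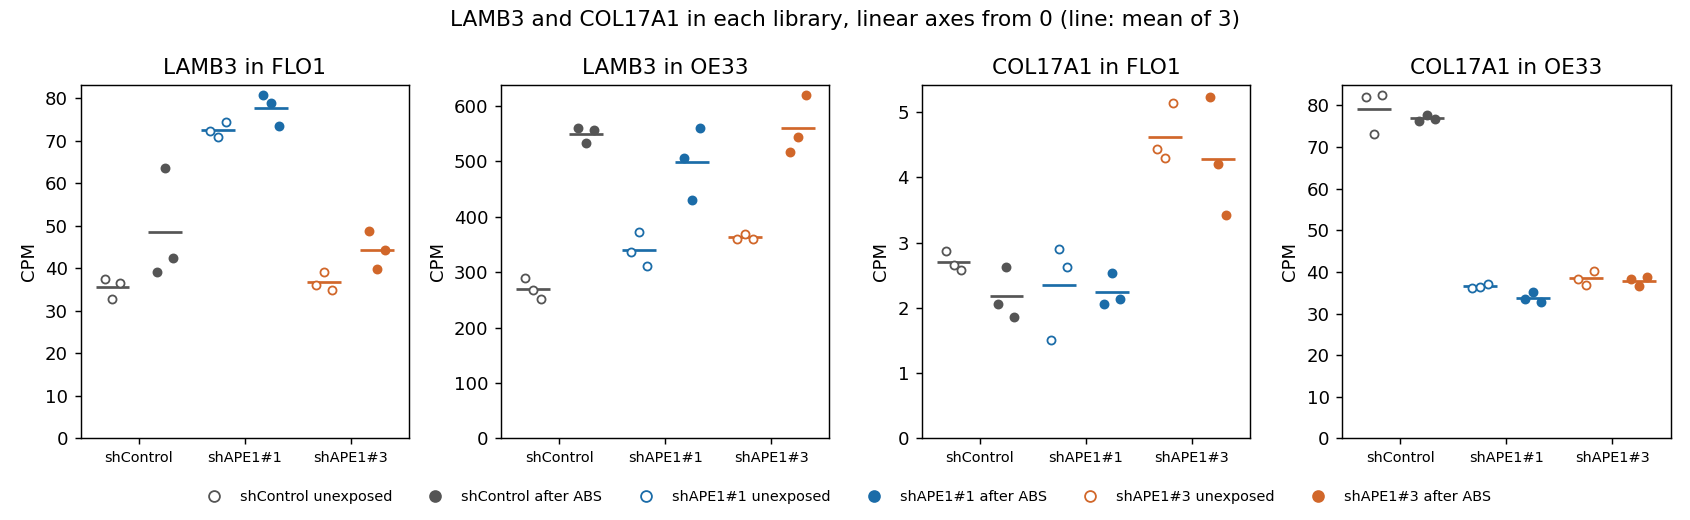
LAMB3 and COL17A1 in each library (CPM, linear axes from 0), by shRNA, unexposed (open) and after ABS (filled), with lines at means of 3. LAMB3 rises with ABS in every OE33 population, and COL17A1 in OE33 sits at 32.7 to 40.3 CPM with either shRNA against 73.2 to 82.4 CPM with shControl.

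The other genes of cell adhesion were counted from lists. After ABS in OE33 shControl 8.4% of all genes were called, 5.89% higher and 2.51% lower. In OE33 shControl after ABS, other laminin chains had 1 of 6 tested members higher. It was LAMA4, of vessel and muscle basement membranes, by 2.73 on the log2 scale. In the same libraries the sum over 8 fibroblast markers was 4.41 to 22.1 CPM, against 3.87 to 4.27 CPM unexposed. A link between that sum and the LAMA4 change was not tested. Other integrin subunits had 3 of 12 higher (ITGB8, ITGB6 and ITGA5) and focal adhesion genes 5 of 16 (TNS3, FERMT2 and VCL led). Other plakins and desmosome genes had 2 of 11 higher (DSP and JUP, desmosomal plaque proteins), keratins joined to hemidesmosomes 1 of 9 (KRT6A), and proteases of laminin-332 and collagen XVII 1 of 8 (PLAU), while basement membrane and anchoring fibril genes had 0 of 12 (edgeR; 1 at an unadjusted p under 0.05 and 0 by DESeq2). No gene of these lists was called lower by edgeR. The median log2 fold change was 0.25 over the 8 members and 0.16 over the focal adhesion genes, against 0 over all genes. In FLO1 shControl after ABS 3% of all genes were called. The same 7 lists had 1 called among 75 tested genes, TNS1 of the focal adhesion list (1.27). At an unadjusted p under 0.05 there were 11 (edgeR), and DESeq2 called 1.

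FOS and JUN family genes, whose products bind the AP-1 motif, were higher in 6 of 7 in FLO1 shControl after ABS (FOSB by 2.30, FOS by 2.03 and JUND by 0.80 led on the log2 scale) and in 3 of 7 in OE33 shControl (FOSB by 1.53, JUN by 0.30 and FOSL1 by 0.29). Of all genes, 2.48% were higher in FLO1 and 5.89% in OE33. Whether these factors bound the windows was not measured.

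In unexposed OE33 with both shRNAs 12.9% of all genes were called, 6.65% higher and 6.25% lower, and several of the counts below are near that share. In unexposed OE33 with knockdown, other integrin subunits had 3 of 12 higher with both shRNAs and 1 lower (ITGA5, the fibronectin receptor chain, by a mean of 1.25 on the log2 scale, and ITGB2 at -0.68). Other laminin chains had 2 of 6 higher and 1 lower (LAMC1 0.61, LAMB1 0.24 and LAMB2 -0.56), and focal adhesion genes had 5 of 16 higher, led by FERMT2, FLNA and ACTN1. Keratins had KRT6A higher by 1.15 and KRT19 at -0.50, of 9 tested. Basement membrane genes had 1 of 12 higher (COL4A5), plakins and desmosome genes 2 of 11 higher and 2 lower, and the proteases 1 of 8 each way (PLAT 0.49 and MMP7 -0.53). The median was 0.08 over the 8 members and 0 over all genes. In unexposed FLO1 with both shRNAs, 0 of the 75 tested genes of these 7 lists were called by edgeR, with 3 at an unadjusted p under 0.05 and 1 by DESeq2.

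The genes whose pattern over the 18 libraries of a line was most like the mean of LAMA3 and LAMB3 were ranked by Pearson r of log2 CPM, a description across libraries that share groups and depth. In OE33 they were AMOTL2 (r = 0.969), SND1, MARCH4, NPC1 and UPK1B (0.948), of 11634 genes ranked. PLEC was at rank 6 there (r = 0.948) and DST at rank 782 (0.723), while ITGA6 (-0.66) and ITGA3 (-0.521) ran the other way. In FLO1 they were PC (0.957), SMPD1, GOLGA7B, ADGRG1 and VGF (0.935), of 11987, with ITGA3 at rank 221 (0.831). LAMA3 and LAMB3 correlated with each other at 0.756 in FLO1 and 0.767 in OE33.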

How the data were processed

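Gene counts for 36 libraries, as deposited by the authors, were used unchanged. Per the submitters' processing notes, reads were trimmed with Trimmomatic 0.36, aligned with STAR 2.5.2b to GRCh38 and counted with featureCounts of Subread 1.5.2 (annotation release, strand setting and multimapping reads: not given in the sources used here). Without a stated strand setting, antisense and overlapping genes may share reads. Symbols, exon lengths and coordinates came from GENCODE 29, which named 56898 of 57500 IDs; the rest held 0.0183% of counts. The labels assigned each library to its group. Each line was fitted apart over its 18 libraries, and both lines together over 36, with edgeR 4.0.16 in R 4.3.3 (TMM, filterByExpr, robust quasi-likelihood fit, 1 coefficient per group). P-values were adjusted by Benjamini-Hochberg over all genes tested and called under 0.05. SEs were derived from the F statistic. A count with both shRNAs needs both calls with 1 sign; these comparisons share the shControl libraries.

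On simulated counts for OE33 shControl after ABS (15540 genes), 94.9% of genes changed by 1 on the log2 scale and at 1 CPM or more were recovered, against 88.2% for FLO1 (16868 genes). Over all levels, 76% were recovered in OE33 and 68% in FLO1. The limit of 1 CPM was set after the FLO1 value had missed a minimum chosen for all levels. Of genes changed by 0.5 on the log2 scale, 73.3% in OE33 and 59.0% in FLO1 were recovered at 1 CPM or more. Over all levels those shares were 55% and 46%, so many changes of that size would be missed. The members and gene lists were chosen with earlier results of these data known. All 8 members were named throughout; from each other list at most the 3 called genes with the largest change were named, and 5 genes per line were ranked by likeness to LAMA3 and LAMB3 (prior count 1, mean log2 CPM of at least 1). Alternatives were DESeq2 1.42.0 with its Wald test, its size factors, other filters, fits to the groups compared alone, a replicate block and leaving out each library. Replicate numbers did not pair the libraries.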

Additional observations from a re-analysis of the deposited data

Results flagged for a closer look

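Several effects on these genes differed between groups by a test of the difference itself (edgeR quasi-likelihood test, Benjamini-Hochberg adjustment over all genes). The effects of the 2 shRNAs differed in unexposed FLO1 for 5 genes: shAPE1#3 minus shAPE1#1 was -0.75 for LAMA3, -0.98 for LAMB3, -0.42 for ITGA6, -0.58 for ITGA3 and 0.96 for COL17A1 on the log2 scale. The response to ABS of LAMB3 was larger in OE33 than in FLO1 by 0.59, at the threshold (edgeR adjusted p = 0.0491). That call was lost in 10 of the 12 fits that left out 1 library, and the ITGA6 call between shRNAs in 3 of 6. The effect of knockdown on COL17A1 differed between OE33 and FLO1 by -1.36, with COL17A1 at 1.51 to 5.14 CPM in unexposed FLO1 and at 36.1 to 82.4 CPM in unexposed OE33.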

How the results depend on the processing

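The 37 effects on members called in single comparisons kept their direction in all 462 refits, and 38 of these refits lost the call. Of the 38, 5 came from settings other than leaving out a library. These were the replicate block for ITGA3 with shAPE1#1 in unexposed FLO1 (edgeR adjusted p = 0.0512), the fit to the compared groups for COL17A1 with shAPE1#3 in FLO1 after ABS (0.0997 as edgeR adjusted p), and, for the LAMB3 difference between lines in the ABS response, DESeq2 size factors, the replicate block and the fit to the compared groups (edgeR adjusted p = 0.0742, 0.0693 and 0.335). For FLO1 shControl after ABS the count of members was 0, against 1 with DESeq2 and 1 without a filter, and 0 to 1 when each library was left out in turn (1 without ABS replicate 1). For FLO1 knockdown after ABS it was 0, against 1 without a filter. For shAPE1#3 against shAPE1#1 in FLO1 it was 5, against 8 in the fit to only those groups, where all calls went from 2054 genes (12.2%) to 5428 (34.8%). For the difference of the ABS response between lines it was 1, against 0 with DESeq2 size factors, with the replicate block and in the fit to the compared groups, 2 with DESeq2, 4 without a filter, and 0 to 3 on leaving out a library. For the difference of the knockdown effect it was 1, against 2 without a filter and in the fit to the compared groups, and 1 to 2 on leaving out a library. The cause was not tested, beyond fewer libraries in the fits to compared groups and a different set of genes without a filter.

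Same-numbered replicates did not deviate together (correlations from -0.251 to 0.098 in FLO1 and -0.182 to 0.076 in OE33), and the replicate block changed no other count of members. Counts over all genes moved by over 1.5 times in several settings. For FLO1 shControl after ABS, 506 genes became 787 with DESeq2, 102 in the fit to the compared groups and 923 without ABS replicate 2; for OE33 shControl after ABS, 1306 became 2157 in the fit to the compared groups and 683 without shControl replicate 2; for FLO1 knockdown with both shRNAs, 12 became 31 with DESeq2 and 101 in the fit to the compared groups. For the line difference of the ABS response, 315 became 547 with DESeq2, 99 in the fit to the compared groups and 887 without FLO1 shControl ABS replicate 2. For FLO1 knockdown after ABS, 24 became 142 without the same library and 50 with DESeq2. Few counts limit LAMA3, ITGB4 and COL17A1 in FLO1. The order of levels per kilobase was the same with the longest transcript as length. Both lengths take in the longest isoform, while DST has 35 annotated transcripts and LAMA3 15. Lengths of shorter isoforms were not tried, and counts per gene do not tell isoforms apart, so these ranks could differ with them.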
